A study of Mus musculus with 3 samples.

Results

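Transcripts of the proteasome, the barrel-shaped protease that degrades ubiquitin-tagged proteins, were examined in immature T cells of the thymus (thymocytes) from 3 wild-type mice. The genes were chosen by name, as those whose single symbol in the platform annotation begins with Psma, Psmb, Psmc, Psmd or Psme and a number. This gave 45 genes of the 19938 that had a symbol of their own. Of the 45, 43 encode subunits, assembly chaperones or activators of the proteasome. The other two matched by name only. Psmc3ip encodes a partner of the meiotic recombinases, and Psme3ip1 a protein that binds the PA28 gamma activator.

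Each mouse gave 1 sample of total RNA, extracted with Trizol and hybridised to an Affymetrix MoGene 1.0 ST array. The mice, numbered 92, 103 and 106, were of wild-type genotype on a mixed FVB and C57BL6 background, and no label gives their age, sex or treatment. They are the normal group of a study of lymphomas in tPTEN-/- mice; the lymphoma arrays were not analysed here, so that 1 group was described and no tumour was compared with it. An RNA amount of 0.3 µg and a low integrity number (RIN) of 3 are recorded for each sample, and the labels carry a T cell lymphoma entry under disease state that goes against the titles and genotypes. Levels are log2 values in the authors' units, and the 3 arrays limit the precision of every value. Probe sets differ in affinity, so a level was set against the same gene in another mouse or against background. Where the level of another gene was subtracted, only the change of that difference between mice was read.

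The core particle of the proteasome is a stack of rings, the outer ones of alpha subunits and the inner ones of beta subunits. Proteolysis is carried out by the beta subunits encoded by Psmb5, Psmb6 and Psmb7. Cells exposed to interferon gamma, and many cells of the immune system, replace them with Psmb8, Psmb9 and Psmb10, the immunoproteasome subunits, which change the peptides available to MHC class I. Cortical epithelial cells of the thymus use Psmb11 in the place of Psmb5, which gives the thymoproteasome that is needed for positive selection of CD8 T cells. Psma8 takes the place of the alpha subunit Psma7 in male germ cells. The regulatory particle consists of a base of ATPases and scaffold proteins, which unfolds substrates, and a lid, which removes ubiquitin. PA28 and PA200 are other caps of the core particle.

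The arrays carried thymocyte RNA, and they were not alike in markers of other cells. All 9 measured thymocyte markers were above background on every array, where 61.8% of all named genes were. Among them were Rag1 at 13.81, 13.38 and 13.58 and Cd8a at 13.24, 13.18 and 13.22 in mice 92, 103 and 106. The array of mouse 92 stood apart from the other two. Its neutrophil markers averaged 6.02, against 7.73 and 7.39 in mice 103 and 106. All 11 tested members of that list were lowest in mouse 92, where 35.1% of all tested genes were. Cxcr2 was below background on every array. The B cell markers averaged 6.33, 7.39 and 7.15 in the same order of mice and were lowest in mouse 92 for 8 of 8 tested genes, with Ebf1 below background throughout. Xist, the RNA that coats an inactive X chromosome, was at 5.30 in mouse 92 and at 11.85 and 11.67 in the others, and the Y-linked Eif2s3y was at 10.42, 3.59 and 3.55. By both genes mouse 92 differed from the other two in sex, so in every value where mouse 92 stands apart below, sex, the markers of other cells and the individual mouse cannot be told apart.

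Nearly the whole complex was transcribed above background. Background was set per array at the 95th percentile of 1207 olfactory, vomeronasal and trace amine receptor genes, at 5.91, 6.10 and 6.002 in mice 92, 103 and 106. Of the 45 genes, 44 exceeded it on all 3 arrays, a share of 97.8%, where 61.8% of all named genes did. The exception was the testis subunit Psma8. At the stricter 99th percentile, 43 of the 45 passed on all arrays, against 46.8% of all named genes, and the gene that no longer passed was the cortical epithelial subunit Psmb11.

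**Figure D1:**
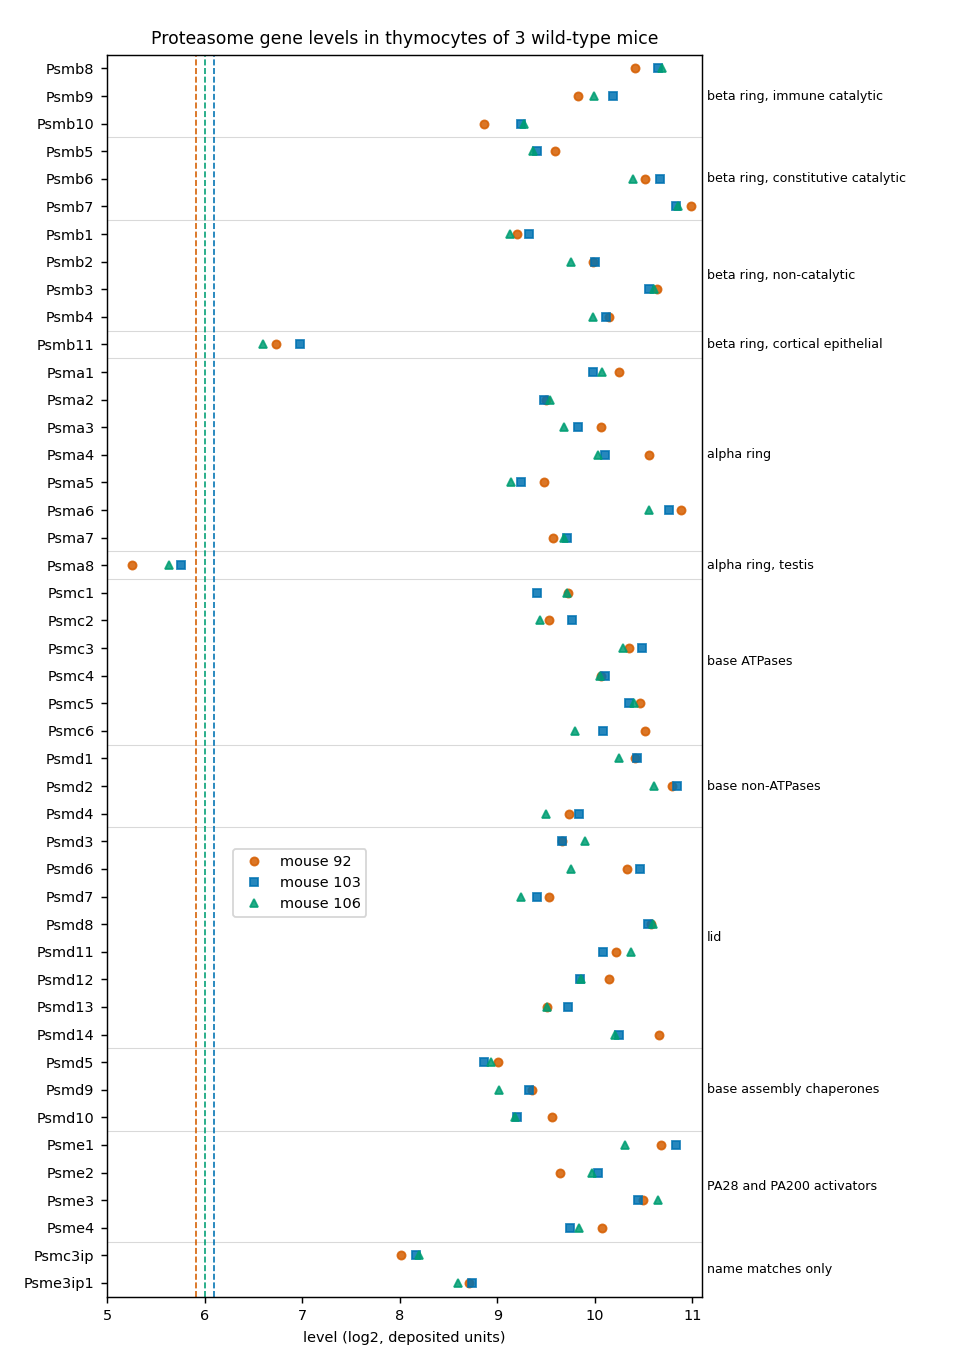
Level of each proteasome gene (log2, horizontal axis) in mice 92, 103 and 106, with genes grouped by role and dashed lines at each array's background threshold. Psma8 lies left of all 3 thresholds at 5.25 to 5.75, Psmb11 just right of them at 6.60 to 6.98, and every other gene above 8.

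Transcripts of both exchangeable sets of catalytic subunits were above background, and the sets differed in which mouse was lowest. Psmb8, the immune counterpart of Psmb5, had a log2 level of 10.41 in mouse 92, against 10.65 in mouse 103 and 10.69 in mouse 106. For Psmb9, the counterpart of Psmb6, the levels were 9.82, 10.18 and 9.997 in the same order. Psmb10, the counterpart of Psmb7, was at 8.86, 9.24 and 9.28. All 3 immune subunits were therefore lowest in mouse 92, where 35.1% of all tested genes were lowest.

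Their constitutive counterparts were not lowest in that mouse. Psmb5, which carries the chymotrypsin-like activity, stood at 9.60 in mouse 92, above 9.40 in mouse 103 and 9.36 in mouse 106. Psmb7, with the trypsin-like activity, was at 10.98, 10.83 and 10.85. Both were highest in mouse 92. Psmb6, which carries the caspase-like activity, was at 10.51, 10.67 and 10.39 and was highest in mouse 103.

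The difference of each immune subunit from its constitutive counterpart was lowest in mouse 92 for all 3 pairs. Relative to its 3-mouse mean, the log2 difference of Psmb8 minus Psmb5 was -0.32 in mouse 92, 0.12 in mouse 103 and 0.20 in mouse 106, a span of 1.43-fold. For Psmb10 minus Psmb7 these values were -0.36, 0.17 and 0.19, a span of 1.47-fold. Psmb9 minus Psmb6 moved less, at -0.17, 0.040 and 0.13, a span of 1.23-fold. Mouse 92 was lowest for all 3 pairs after quantile and cyclic loess normalisation too; centring on the median cannot change a difference within an array. As deposited, mouse 92 was also lowest for the exchanges outside the immune set. Relative to its 3-mouse mean, Psmb11 minus Psmb5 was -0.18, 0.26 and -0.080 in mice 92, 103 and 106. Psma8 minus Psma7 was -0.21, 0.15 and 0.061, with Psma8 below background and Psmb11 close to it. Psmb11 minus Psmb5 shares Psmb5 with an immune pair, and both of these differences include a signal below or close to background. They therefore cannot show whether the low value in mouse 92 was particular to the immune pairs, and other gene pairs were not examined. With mouse 92 left out, the median deviation of the immune subunits was -0.018 in mouse 103 and 0.018 in mouse 106.

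None of these 6 genes passed the test for spread between mice. The test set each gene's variance over the 3 mice against the variance limma predicts from the gene's level, and p-values were adjusted over all 13314 genes above background on at least 1 array. In limma the unadjusted p was 0.342 for Psmb8, 0.256 for Psmb9 and 0.131 for Psmb10, with an adjusted p of 0.996 for each. Of all genes tested, 30, or 0.225%, passed an adjusted p of 0.05, and the smallest range among those 30 was 1.45 on the log2 scale. The SDs of Psmb8, Psmb9 and Psmb10 over the 3 mice were 0.15, 0.18 and 0.23, each above limma's predicted SD for its level of 0.14, 0.14 and 0.15, and their ranges lay between 0.29 and 0.42, below the smallest range that was called.

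Most tested neutrophil, B cell, erythroid and macrophage markers were lowest in mouse 92, as the immune subunits were. Other lists were not alike in this. Of all tested genes, 35.1% were lowest and 37.4% highest in mouse 92. Of 11 tested thymic epithelium markers 5 were lowest and 5 highest in mouse 92, and all 3 tested male germ cell markers were highest there. The macrophage and dendritic cell markers averaged 6.82, 7.30 and 7.00 in mice 92, 103 and 106, and 7 of the 11 tested were lowest in mouse 92; Adgre1, Mrc1 and Xcr1 were below background on every array. The thymocyte markers had 0 of 9 genes lowest in mouse 92. In RNA of mixed cells, fewer cells of a type and less RNA per cell cannot be told apart, and the part of these other cells, or of sex, in the levels of the immune subunits was not tested.

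**Figure D2:**
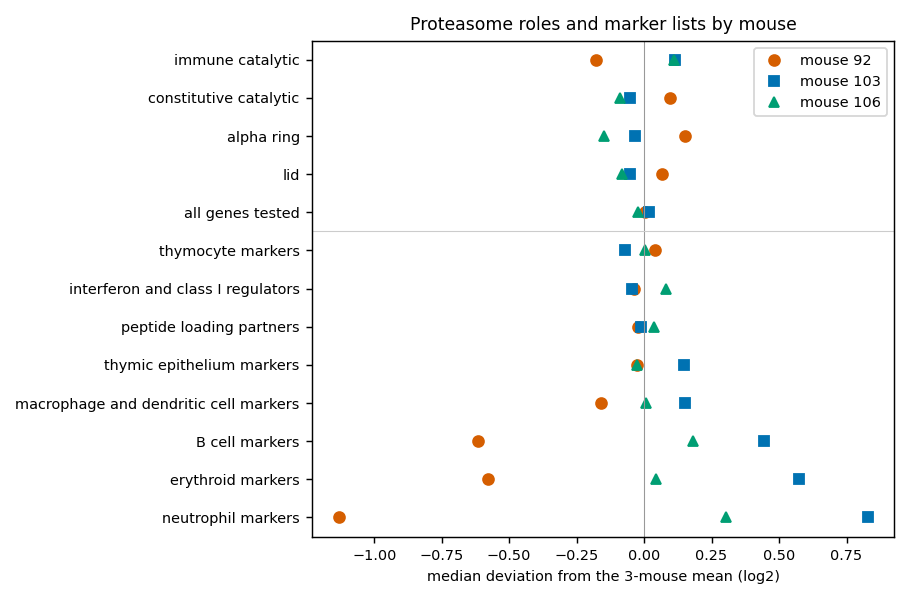
Median deviation from the 3-mouse mean (log2, horizontal axis) of proteasome roles, of all genes tested and of lists of marker and regulator genes, with 1 point per mouse. Mouse 92 is the low point of the immune catalytic subunits at -0.18 and of the neutrophil, B cell, erythroid and macrophage lists, and the high point of the constitutive catalytic subunits at 0.095 and of the alpha ring at 0.15.

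Psmb9 and Psmb8 lie in the MHC region of chromosome 17, with the peptide transporter gene Tap1 between them and Tap2 after Psmb8 in the RefSeq gene order. Tap1, which shares a divergent promoter with Psmb9, was at 9.74, 9.88 and 10.05 in mice 92, 103 and 106, and Tap2 at 9.99, 10.26 and 10.18. All 4 neighbours were lowest in mouse 92, and none of them passed limma's test (adjusted p = 0.996 for each). Tap1 and Tap2 were picked from the list of peptide loading partners after their values were seen. In that list 3 of the 7 genes were lowest in mouse 92, against 35.1% of all tested genes, and B2m, Erap1 and Pdia3 were highest there. The regulators of these genes showed no common order. Irf1, which drives Psmb8 and Psmb9 after interferon, was at 8.22, 8.58 and 8.50, and Nlrc5, the transactivator of MHC class I genes, at 8.53, 8.70 and 8.84. Both were lowest in mouse 92. Of the 16 tested interferon and class I regulators, 7 were lowest in mouse 92 and 8 in mouse 103, against 35.1% and 28.3% of all tested genes. None of the 16 passed limma's adjusted threshold, against 0.225% of all genes tested that did. Ifit1 (7.496, 6.65 and 6.73) had the smallest limma unadjusted p among them, 0.00689.

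The promoters of both catalytic sets are printed to show how the sequences of exchangeable subunits differ. The windows run from 250 bases before to 50 bases after the gene start in the RefSeq table of build GRCm38.p6, 5′ to 3′ on the strand of the gene. Capitals mark motif matches on either strand. Psmb8 (chr17:34197945-34198244, plus strand) holds none of the motifs reported here. Psmb9 (chr17:34187281-34187580, minus strand) holds 1 match to CCAAT, the NF-Y core, read on the opposite strand. Psmb10 (chr8:105938343-105938642, minus strand) holds none of them either. Psmb5 (chr14:54617946-54618245, minus strand) and Psmb6 (chr11:70525107-70525406, plus strand) each hold 1 match to TGACNNNGC, the core of the antioxidant response element bound by NFE2L1 and NFE2L2. Psmb7 had no entry in the table.
Psmb8: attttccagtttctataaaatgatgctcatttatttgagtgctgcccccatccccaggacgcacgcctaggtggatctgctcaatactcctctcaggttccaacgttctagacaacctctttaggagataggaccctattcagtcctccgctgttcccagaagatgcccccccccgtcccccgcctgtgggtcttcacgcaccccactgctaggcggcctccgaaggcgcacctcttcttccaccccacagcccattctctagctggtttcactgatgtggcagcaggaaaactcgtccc
Psmb9: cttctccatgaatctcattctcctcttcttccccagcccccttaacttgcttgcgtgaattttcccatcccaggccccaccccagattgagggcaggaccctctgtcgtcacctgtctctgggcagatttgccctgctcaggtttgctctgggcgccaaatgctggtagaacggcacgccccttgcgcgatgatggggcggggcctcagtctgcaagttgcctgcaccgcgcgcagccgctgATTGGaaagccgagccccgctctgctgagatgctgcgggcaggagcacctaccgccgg
Psmb10: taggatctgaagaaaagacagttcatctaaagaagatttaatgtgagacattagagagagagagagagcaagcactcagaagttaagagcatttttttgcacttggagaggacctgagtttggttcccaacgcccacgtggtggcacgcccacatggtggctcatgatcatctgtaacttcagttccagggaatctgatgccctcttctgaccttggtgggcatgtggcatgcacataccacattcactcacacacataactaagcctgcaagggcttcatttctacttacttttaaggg
Psmb5: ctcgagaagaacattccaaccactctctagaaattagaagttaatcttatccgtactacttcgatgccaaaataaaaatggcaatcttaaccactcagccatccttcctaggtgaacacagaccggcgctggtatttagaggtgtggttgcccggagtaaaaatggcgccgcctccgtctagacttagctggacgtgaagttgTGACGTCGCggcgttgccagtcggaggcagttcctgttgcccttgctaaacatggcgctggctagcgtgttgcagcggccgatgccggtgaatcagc
Psmb6: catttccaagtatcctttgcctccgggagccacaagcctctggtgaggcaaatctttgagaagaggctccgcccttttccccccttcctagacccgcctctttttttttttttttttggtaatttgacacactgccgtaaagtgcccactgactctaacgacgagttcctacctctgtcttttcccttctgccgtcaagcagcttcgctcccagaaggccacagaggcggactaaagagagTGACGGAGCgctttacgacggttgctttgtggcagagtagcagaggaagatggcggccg

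Over the whole family, 38 of the 45 genes had 42 such windows, some with more than 1 start. The ETS core CCGGAAG occurred in 15 of the 42 windows, or 35.7%, and in 8.86% of all 32851 promoter windows of the table. The 14 genes with it were Psma6, Psmc1, Psmc2, Psmc6, Psmd2, Psmd4, Psmd6, Psmd11, Psmd12, Psmd13, Psme3, Psme4, Psmc3ip and Psme3ip1. Psmc3ip and Psme3ip1 are the members that matched by name only. The antioxidant core TGACNNNGC occurred in 14.3% of the members' windows and 12.4% of all windows, and CCAAT in 38.1% and 37.4%, shares that were close to each other. The core of the interferon-stimulated response element occurred in 9.52% of the members' windows and 3.44% of all, in Psmb3, Psmd4, Psmd9 and Psme1. The palindrome bound by NRF1, a factor other than NFE2L1, occurred in 1 of the 42 windows (Psma2), or 2.38%, and in 0.971% of all windows. A match describes the letters in these windows and nothing more.

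Nfe2l1, the factor that raises proteasome genes when the protease is inhibited, was above background at 9.15, 9.26 and 9.18 in mice 92, 103 and 106. Its relative Nfe2l2 was at 8.96, 8.97 and 8.91. Their ranges over the mice were 0.11 and 0.062. Of the 9 measured genes on the list of proteasome gene transcription, 8 were above background on all arrays, where 61.8% of all named genes were. The exception was Maff, at 5.88, 5.76 and 5.93.

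The cortical epithelial subunit Psmb11, which lies next to Psmb5 on chromosome 14, was close to background. It read 6.74, 6.98 and 6.60 in mice 92, 103 and 106. They exceeded the 95th percentile of the receptor genes on all 3 arrays but the 99th percentile, which lay at 6.68, 6.9997 and 6.84 in the same order, in mouse 92 alone. Psmb11 did not pass limma's test for spread between mice (adjusted p = 0.996). Its SD was 0.19, against a predicted SD of 0.16 for its level.

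Other markers of thymic epithelium gave a mixed reading. Foxn1, the master factor of these cells, was below background on every array at 5.44, 5.74 and 5.77, and Cxcl12 was too. Prss16, a protease of cortical epithelium, was at 5.97, 6.83 and 6.01 in mice 92, 103 and 106. Of the 13 measured markers 9 were above background on all arrays, where 61.8% of all named genes were. Among them were Ctsl and Ly75, which thymocytes and other leukocytes can also express. The list averaged 7.13, 7.34 and 7.15 in the same order of mice, but its genes went both ways: of the 11 tested, 5 were highest in mouse 92, 5 in mouse 103 and 1 in mouse 106. Whether epithelial RNA contributed to the Psmb11 reading was not tested.

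The testis subunit Psma8 was the one member below background on every array, at 5.25, 5.75 and 5.63 in mice 92, 103 and 106. It was not entered into the test of variation. Its counterpart in other tissues, Psma7, was at 9.57, 9.71 and 9.68. Among 12 measured genes of male germ cells, 9 were below background on every array, including Ddx4 at 3.99, 3.98 and 3.87 and Tnp1 at 5.12, 5.70 and 5.43. The 3 germ cell genes above background on all arrays were Prm1 at 6.30, 6.20 and 6.09, Prm2 at 6.86, 6.79 and 6.73 and Spo11, the enzyme that makes meiotic DNA breaks, at 10.01, 9.63 and 9.44. Of all named genes 61.8% were above background on all arrays.

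The alpha ring, which gates entry to the core, was highest in mouse 92 for 5 of its 7 ubiquitous subunits. Of all tested genes 37.4% were highest there. All 7 subunits were above background, at 9.14 to 10.89. Psma4 had the widest spread of the ring, at 10.56 for mouse 92 against 10.10 and 10.03 for mice 103 and 106, a range of 1.44-fold. Psma3 was at 10.06, 9.83 and 9.69, and Psma6 at 10.89, 10.76 and 10.55. Both followed the same order of mice. Psma1 was at 10.25, 9.98 and 10.08. Psma5 was at 9.48, 9.24 and 9.14 as the mean of 2 probe sets, 1 of which was highest in mouse 106. Psma2, at 9.50, 9.47 and 9.55, had the smallest SD of the ring, 0.036, and Psma7 was lowest in mouse 92. The median deviation of the ring from the 3-mouse mean was 0.15 in mouse 92, -0.033 in mouse 103 and -0.15 in mouse 106, where the medians of all tested genes were 0.0021, 0.018 and -0.024.

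The non-catalytic beta subunits, which complete the inner rings, had SDs over the mice between 0.039 and 0.14. Psmb3 was at 10.64, 10.56 and 10.61, Psmb4 at 10.15, 10.11 and 9.98, Psmb2 at 9.99, 10.003 and 9.75, and Psmb1 at 9.20, 9.33 and 9.13. Of these 4 genes 3 were lowest in mouse 106, where 36.6% of all tested genes were.

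Among the 6 ATPases of the base, which pull substrates into the core, Psmc6 stood out by its spread. It read 10.51, 10.09 and 9.80 in mice 92, 103 and 106, a range of 1.64-fold (limma unadjusted p = 0.0162, adjusted p = 0.756). Psmc4, at 10.06, 10.11 and 10.05, and Psmc5, at 10.47, 10.35 and 10.40, had SDs of 0.031 and 0.058. Psmc1 was lowest in mouse 103, at 9.73, 9.41 and 9.71, while Psmc2 (9.53, 9.76 and 9.44) and Psmc3 (10.35, 10.49 and 10.29) were highest there. The ATPases therefore had no common order of mice.

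The scaffold proteins Psmd1 and Psmd2 and the ubiquitin receptor Psmd4 were each highest in mouse 103 and lowest in mouse 106. Of all tested genes, 39.1% were highest in mouse 103 and 36.6% lowest in mouse 106. Psmd1 was at 10.41, 10.43 and 10.25, Psmd2 at 10.79, 10.84 and 10.61 and Psmd4 at 9.74, 9.84 and 9.50 in mice 92, 103 and 106. The 3 chaperones of base assembly were each highest in mouse 92, where 37.4% of all tested genes were. Psmd10, also known as gankyrin and located on the X chromosome, was at 9.57, 9.20 and 9.18, Psmd9 at 9.36, 9.32 and 9.02 and Psmd5 at 9.004, 8.86 and 8.94.

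The lid, which removes ubiquitin before degradation, held the gene with the largest SD of the 44 tested members, 0.38. Psmd6 read 10.33 and 10.46 in mice 92 and 103 and 9.75 in mouse 106, a range of 1.63-fold (limma unadjusted p = 0.0123, adjusted p = 0.701). With mouse 92 left out, the test between the remaining arrays, which rests on 1 degree of freedom, gave Psmd6 an adjusted p of 0.0255 in limma, and it was then the one member past the threshold; in that fit 58 of 13093 genes, or 0.443%, were called. Psmd14, the deubiquitinating enzyme of the lid, was at 10.65, 10.25 and 10.21 and highest in mouse 92. Psmd8, at 10.57, 10.54 and 10.60, had the smallest SD of all tested members, 0.029.

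The other lid subunits differed in their order. Psmd12 (10.15, 9.85 and 9.86) and Psmd7 (9.53, 9.41 and 9.25) were highest in mouse 92, Psmd13 (9.51, 9.72 and 9.51) in mouse 103, and Psmd3 (9.66, 9.66 and 9.90) and Psmd11 (10.22, 10.09 and 10.37) in mouse 106. Psmd11, whose product promotes assembly of the lid with the core, was lowest in mouse 103.

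The PA28 activator is a ring of alpha and beta subunits, encoded by Psme1 and Psme2, which are induced by interferon together with the immune subunits. Here they differed in which mouse was lowest. Psme2 read 9.64, 10.04 and 9.97 in mice 92, 103 and 106, lowest in mouse 92 as the immune subunits were. Psme1 was at 10.68, 10.84 and 10.31, lowest in mouse 106 (limma unadjusted p = 0.0625, adjusted p = 0.996). Psme3, the nuclear PA28 gamma, was at 10.499, 10.44 and 10.64, and Psme4, which encodes PA200, at 10.07, 9.75 and 9.84. Their order of mice differed from each other and from that of Psme1 and Psme2.

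**Figure D3:**
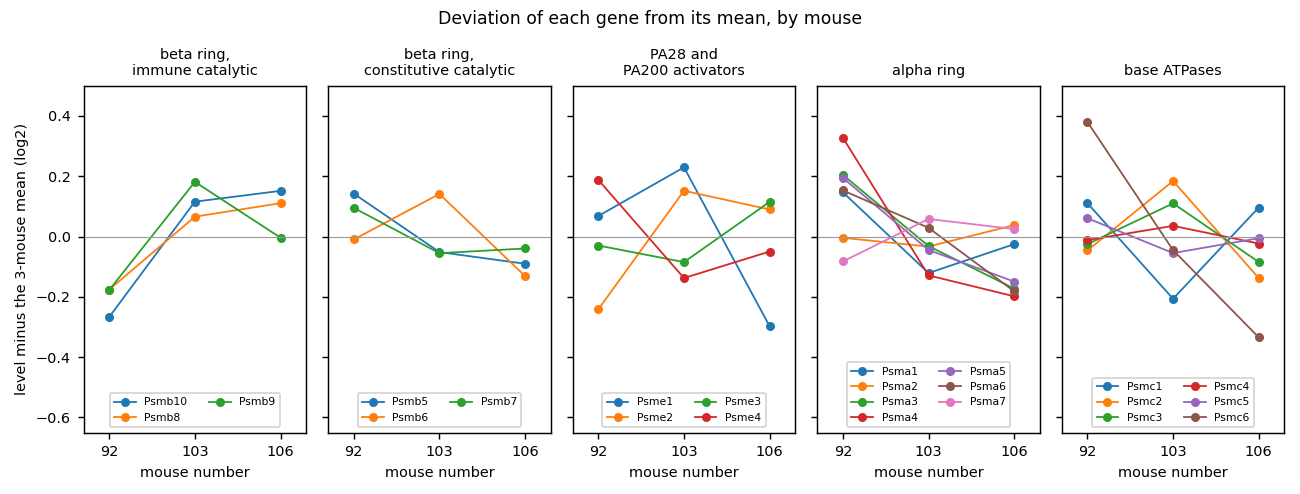
Level minus the 3-mouse mean (log2, vertical axis) of each gene in mice 92, 103 and 106, in 5 panels by role; lines link the points of a gene and carry no order. The 3 immune subunits start low in mouse 92, between -0.27 and -0.18, as Psme2 does at -0.24, whereas 5 of 7 alpha subunits are high there and Psmc6 spans from 0.38 to -0.33.

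Both PA28 promoters are shown because the genes differed in which mouse was lowest. Psme1 (chr14:55578244-55578543, plus strand) holds 1 match to the core of the interferon-stimulated response element, which IRF factors bind, read on the opposite strand and starting 9 bases after the gene start. The window of Psme2 that is shown (chr14:55591052-55591351, minus strand, 1 of 2 in the table) holds none of the 5 motifs reported here.
Psme1: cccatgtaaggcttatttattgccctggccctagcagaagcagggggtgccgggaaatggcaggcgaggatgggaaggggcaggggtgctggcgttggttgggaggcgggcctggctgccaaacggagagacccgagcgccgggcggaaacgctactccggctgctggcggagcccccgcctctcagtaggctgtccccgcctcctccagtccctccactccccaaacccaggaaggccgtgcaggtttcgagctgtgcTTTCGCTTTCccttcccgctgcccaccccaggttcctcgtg
Psme2: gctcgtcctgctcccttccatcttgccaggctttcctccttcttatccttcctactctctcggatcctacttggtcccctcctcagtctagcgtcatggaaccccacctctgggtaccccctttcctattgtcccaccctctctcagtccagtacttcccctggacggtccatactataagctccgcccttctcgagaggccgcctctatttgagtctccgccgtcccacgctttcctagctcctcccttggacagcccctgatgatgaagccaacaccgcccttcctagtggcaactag

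Across all 44 tested members the spread between mice was close to that of other genes in its median. The median SD was 0.14 for the members and 0.13 for all genes tested. Among genes with a mean level of 9 to 11, it was 0.14 for 40 members and 0.12 for all 3570 genes. The range was under 0.5 on the log2 scale for 40 of the 44 members. The share of all tested genes under 0.5 is not given here, so this count does not set the members apart. The 4 members above 0.5, Psmd6, Psmc6, Psme1 and Psma4, were picked by their range and were all lowest in mouse 106. Of all tested genes 36.6% were lowest in that mouse, and of the tested members 54.5%.

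In limma 0 of the 44 members varied at an adjusted p under 0.05, against 0.225% of all genes tested, and 2 (Psmc6 and Psmd6) had an unadjusted p under 0.05, against 4.84% of all. The smallest adjusted p of a member was 0.701. Over all members tested, 24 of 44, or 54.5%, were lowest in mouse 106, where 36.6% of all tested genes were, and 13 were lowest in mouse 103, against 28.3% of all. Highest levels fell in mouse 92 for 19 members, in mouse 103 for 17 and in mouse 106 for 8, against 37.4%, 39.1% and 23.5% of all tested genes. Under quantile, median and cyclic loess scaling and with 1 probe set per gene the count lowest in mouse 106 was 24 or 25. Among the 34 tested members of the core and regulatory particles and the base chaperones, leaving out the immune and cortical epithelial subunits, 21 were lowest in mouse 106, where 36.6% of all tested genes were. The counts for the other two mice depended on the scaling. Lowest in mouse 92 were 7 of all 44 as deposited and 14 after quantile or cyclic loess normalisation, and lowest in mouse 103 were 13 as deposited and 6 after either. Highest in mouse 92 were 19 as deposited, 14 after quantile and 15 after cyclic loess normalisation.

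**Figure D4:**
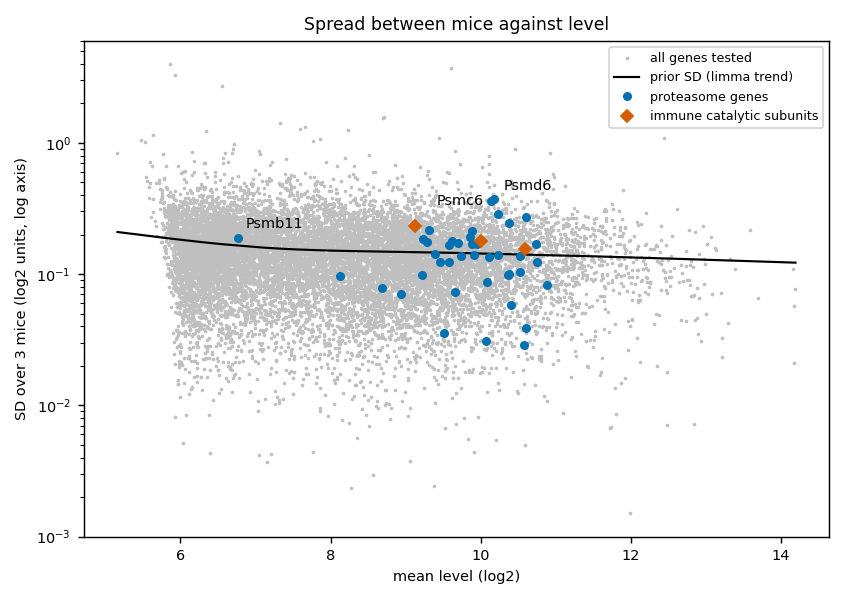
SD over the 3 mice (log2 units, logarithmic vertical axis) against mean level (log2) for 13314 tested genes in grey and the 44 proteasome genes in colour, with limma's prior SD as a line. The proteasome genes, with SDs of 0.029 to 0.38, lie on both sides of the line and within the cloud of other genes.

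All 15 measured genes on the list of assembly factors and accessory proteins were above background, against 61.8% of all named genes. In limma 0 of 15 varied after adjustment, against 0.225% of all genes tested. Pomp, the chaperone that matures the beta rings, was at 10.93, 11.03 and 10.83 in mice 92, 103 and 106, and Ubqln1, a shuttle that delivers ubiquitinated proteins, at 10.34, 10.32 and 10.10. Within this list 10 of 15 genes were highest in mouse 92, where 37.4% of all tested genes were.

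For 5 members the level is a mean over several probe sets, 51 probe sets covering the 45 genes. The probe sets of Psma3 and Psmd2 put the mice in the same order. Those of Psma5 did not. One was at 9.85, 9.53 and 9.14 in mice 92, 103 and 106 and the other at 9.11, 8.95 and 9.14. The 2 sets of Psmc1 differed by 0.82 in mean level, and both were lowest in mouse 103. Those of Psmb3 had opposite extremes, with the first highest in mouse 103 and the second lowest there. The RefSeq gene table lists a pseudogene of Psma5 and pseudogenes of Psmb5, Psmb6 and Psmb7. Signal shared with near-identical copies cannot be separated in this table, and the levels of these genes are uncertain to that extent.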

How the data were processed

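Thymocyte RNA of 3 wild-type mice was measured on Affymetrix MoGene 1.0 ST arrays. The values deposited by the authors are log2 levels of 35557 probe sets, made with Affymetrix Expression Console per the submitters' processing notes. The log2 scale was inferred from the values; background correction, summarisation, normalisation and the arrays normalised together are not stated there. Nothing says that the samples were taken separately beyond their numbers, so the p-values reflect differences among these 3 samples only, which may be technical.

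Of the probe sets, 21789 had 1 symbol in the platform annotation, 1621 had several and 12147 were not listed; those of a gene were averaged. All 45 members matched the RefSeq table of GRCm38.p6 by Entrez identifier and symbol. No build is given for the probes, and coordinates are those of the RefSeq promoter windows.

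The variance test used R 4.3.3 and limma 3.58.1, with an intercept, a trend on level and a prior that is not robust (10.4 prior degrees of freedom), Benjamini-Hochberg adjusted over all genes tested. On simulated data it made no call when nothing was shifted. A first simulation shifted 200 genes by 1 or 2 on the log2 scale, 100 each, and none of them was recovered. There a robust prior with bulk degrees of freedom recovered 99 of the 100 shifted by 2 and 1 of the 100 shifted by 1. The number of shifted genes was then reduced to 40, after that outcome was seen. The prior that is not robust then recovered all 20 shifted by 2 and 0 of the 20 shifted by 1, with 1 false call. The test is therefore weak for small differences and, with the prior that is not robust, also where many genes vary. It was kept as planned. Alternatives were another background percentile or array requirement, probe set rule, prior, filter and normalisation, probe sets with several symbols, and leaving out each mouse.

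The members, roles and lists were chosen with earlier results of these data known. The rule allowed every member to be named. Of the other lists it named fixed examples; further genes of these lists (Tap1, Tap2, Ifit1, Maff, Cxcl12, Cxcr2, Ebf1, Adgre1, Mrc1, Xcr1, Prm2, Spo11, Ctsl, Ly75, Cd8a, Pomp, Ubqln1, B2m, Erap1 and Pdia3) and the sex-linked Xist and Eif2s3y were picked after their values were seen. Protein sequences were not used here, and 1 planned promoter motif is not reported here.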

Additional observations from a re-analysis of the deposited data

Results flagged for a closer look

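One signal lies outside the genes described above. The probe set annotated with both Psme2b and Psme2 was left out because it has several symbols. It read above the background of the receptor genes on all 3 arrays, at 8.50, 8.63 and 8.68 in mice 92, 103 and 106, with a median of 8.63. Like the probe set of Psme2 alone, it was lowest in mouse 92. Groups of 3 samples were not tested for outlying samples.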

How the results depend on the processing

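The count of members above background was 43 to 45 under every alternative, with 43 at the 99th percentile and 45 with the probe set of several symbols included; leaving out a mouse kept it at 44. The count of varying members was 0 in limma, with 1 to 3 at an unadjusted p under 0.05, except without mouse 92, where it was 1 (Psmd6); the range over left-out mice was 0 to 1. Of 484 single-member results under the alternatives, 483 stayed on the same side of the threshold. Over all genes, 30 varied in limma. This count was 18 after quantile and 18 after cyclic loess normalisation, 0 with the per-gene degrees of freedom of a robust prior (600 at an unadjusted p under 0.05), 44 with that prior's bulk degrees of freedom, and 48 to 84 with a mouse left out. The median SD of the members was 0.10 to 0.13 with a mouse left out, where fewer arrays enter it.

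Of 162 role deviations under the alternatives, 149 moved by less than their spread over mice. A change of sign within that spread was not counted as moved. After quantile normalisation the alpha ring in mouse 103 went from -0.033 to 0.0075. The non-catalytic beta subunits in mouse 92 went from 0.051 to -0.0043. Without mouse 92 the immune catalytic subunits in mouse 103 went from 0.12 to -0.018. The deviations that moved by more than their spread concern base ATPases and activators. The base ATPases in mouse 92 stood at -0.037 after quantile and -0.025 after cyclic loess normalisation, against 0.024 as deposited, and in mouse 103 at -0.017 to 0.063 with a mouse left out. The PA28 and PA200 activators stood at -0.038 and -0.028 in mouse 92, 0.076 and 0.069 in mouse 103 and 0.041 and 0.035 in mouse 106 after quantile and cyclic loess normalisation. With a mouse left out, they ranged from -0.027 to 0.023 in mouse 92, -0.0064 to 0.027 in mouse 103 and -0.023 to 0.0064 in mouse 106. The immune catalytic subunits stayed below their mean in mouse 92 in every alternative that kept it (-0.18 to -0.14 with another mouse left out). The cause of these shifts was not tested. No paired analysis was possible because there is 1 group. The smallest range that limma called, 1.45, exceeded the largest range of a member, 0.71, so small differences stay below what 3 arrays can call.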
